A study of Mus musculus with 11 samples.

Results

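Aminoacyl-tRNA synthetases are the enzymes that load each amino acid onto its transfer RNA, the step that fixes which amino acid a codon is read as. Most cells make separate enzymes for the cytosol and for the mitochondrion, and both sets are encoded by nuclear genes. In the cytosol several of them are held in a large multisynthetase complex by scaffold proteins. When uncharged transfer RNA builds up, the kinase GCN2 acts through the factor ATF4 on genes for amino acid synthesis, amino acid transport and a number of the cytosolic synthetases. In white adipose tissue (WAT) protein synthesis serves secreted adipokines, and the mitochondrial enzymes serve the few respiratory chain subunits that are made inside the organelle.

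The transcripts of these enzymes were followed in the gonadal WAT of C57BL/6J mice, described by the study as wildtype males. All mice were fed a 60% high fat diet (HFD), and the study's text gives 20 weeks on the diet. The HFD control group was labelled Vehicle and held 5 mice, and the HFD + IMC group held 6 mice whose diet contained iodomethylcholine (IMC) at 0.06% w/w, an inhibitor of the microbial enzyme that releases trimethylamine from choline. No animal on another diet belongs to the comparison, and the design text states that a further vehicle library was removed for quality. Each library came from 1 mouse, and whole tissue was sequenced, so a lower value cannot be told apart as fewer cells of a type or less RNA per cell.

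Members were found by gene symbol. The cytosolic enzymes carry the amino acid letter followed by ars, and the mitochondrial enzymes carry the same name with a 2. Of the 12787 genes in the table, 36 were members examined here, 20 of them cytosolic and 16 mitochondrial. Gars and Kars, whose single genes supply both compartments, were counted as cytosolic. Values are log2 CPM, read counts divided by the scaled library size and put on a log2 scale, and a positive log2 fold change means a higher value in HFD + IMC mice. Calls were made with limma, and a gene counts as higher or lower where its p, adjusted by Benjamini-Hochberg over all 12787 genes, is under 0.05.

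The libraries held between 22320022 and 25155366 reads on listed genes, with no difference between the groups beyond the spread of mice (two-sided exact permutation test, p = 0.154, where the smallest possible p is 0.00216). The lowest read number of any member in any mouse was 110 (Pars2), and the mean per member ran from 128 to 4812 reads. For 32 of the 36 members the spread between mice was larger than counting error alone would give. Adipoq, the adipocyte gene for adiponectin, was at a mean of 9.74 log2 CPM in HFD mice and 10.91 in HFD + IMC mice. Of the 12 adipocyte markers examined, 11 were higher in HFD + IMC mice and 0 lower, and their summed level was 19600 to 24358 CPM in HFD mice against 30149 to 35108 CPM in HFD + IMC mice. Of the 12 macrophage markers 11 were lower and 0 higher, with sums of 14982 to 19689 CPM against 8214 to 12835 CPM. All 6 listed mast cell markers were lower, at 494 to 1128 CPM against 158 to 318 CPM (Cma1, Cpa3, Mcpt4, Tpsb2, Ms4a2 and Kit). Of 8 fibroblast and progenitor markers 5 were lower (Pi16, Col1a1, Lum, Dcn and Col1a2) and 0 higher. Of 12 skeletal muscle markers 7 were not in the table, and of the 5 listed ones 4 were higher (Myh2, Acta1, Myl1 and Pvalb) and 0 lower. Myh2 was near the floor in HFD mice, at a mean of -1.10 log2 CPM against 1.92 in HFD + IMC mice. Of 7 endothelial markers 1 was higher (Cdh5) and 0 lower, and of the 5 listed mesothelial markers 1 was lower (Wt1) and 0 higher. Of 10 T, B and NK cell markers 3 were in the table, with 0 higher and 0 lower. None of the 6 epididymis and testis markers was in the table. Lists of brown fat, interferon-induced and proliferation genes were also examined and are not reported here. The part of these marker differences in the synthetase values was not tested.

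The promoters of the family are shown first, because some of its cytosolic members carry the letters through which ATF4 is known to act. The composite C/EBP-ATF element was searched as TGATGNAA on both strands in windows from 250 bases before to 50 bases after each start site (RefSeq, GRCm38.p6). A window was found for 27 of the 36 members. It held the element for 5 of the 13 cytosolic members with a window and for 0 of the 14 mitochondrial ones. Of all 27025 genes with a window 4.51% held it, or 3.97% of all 32851 windows. In the 4 stretches below, given 5′ to 3′ on the strand of the gene, capitals mark the element, which appears as its reverse complement in Gars, Iars and Tars, where it lies on the opposite strand.
Gars, chr6:55037960-55037989, plus strand: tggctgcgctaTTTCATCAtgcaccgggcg
Iars, chr13:49682126-49682155, plus strand: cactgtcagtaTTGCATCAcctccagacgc
Tars, chr15:11399655-11399684, minus strand: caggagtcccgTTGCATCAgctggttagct
Yars, chr4:129189895-129189924, plus strand: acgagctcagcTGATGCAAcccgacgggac
Counted from the start site of each window, the element lay 22 bases before it in Gars and 7 before it in Tars, and it began 7 bases after it in Iars and 3 after it in Yars, where the start site of the window lies downstream of the start of the gene span given for Yars further on. The letters CACGTG, the E-box read by MYC and related factors, were found for 5 of the 27 members, among them Farsb, Iars, Tars and Ears2. They were found for 8.09% of all genes with a window, or in 7.15% of all windows. The 2 elements did not overlap in the stretches shown. A match in letters is a description of the window and does not show that a factor binds there.

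Across the whole family the differences were small. IMC-treated mice had 7 synthetase transcripts at higher and 3 at lower levels than HFD mice, while 26 were not called. The background was wide, since 40.9% of all listed genes were called, 20.0% as higher and 21.0% as lower, so 10 of 36 members was a smaller share than that of all genes. The largest change of any member was 0.28 on the log2 scale, and the median over all 36 was -0.002 beside -0.03 over all genes. The median size of change without its sign was 0.08 for members and 0.17 for all genes. Cytosolic members gave 4 higher and 3 lower of 20, and mitochondrial members 3 higher and 0 lower of 16. At an unadjusted p under 0.05 by limma there were 9 cytosolic and 3 mitochondrial members, the latter the same 3. Over all genes 6291 of 12787 were under that threshold, again a larger share than among the members. With libraries scaled by their total reads in place of the upper quartile, 3 members were higher and 4 lower, a different balance of directions from the main count. Without HFD mouse 1 or 3 the number of higher members was 4 in each case. Of the 10 calls, those of Eprs, Yars, Iars2, Farsa and Farsb held in all 8 alternative settings and with any single mouse left out.

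**Figure D1:**
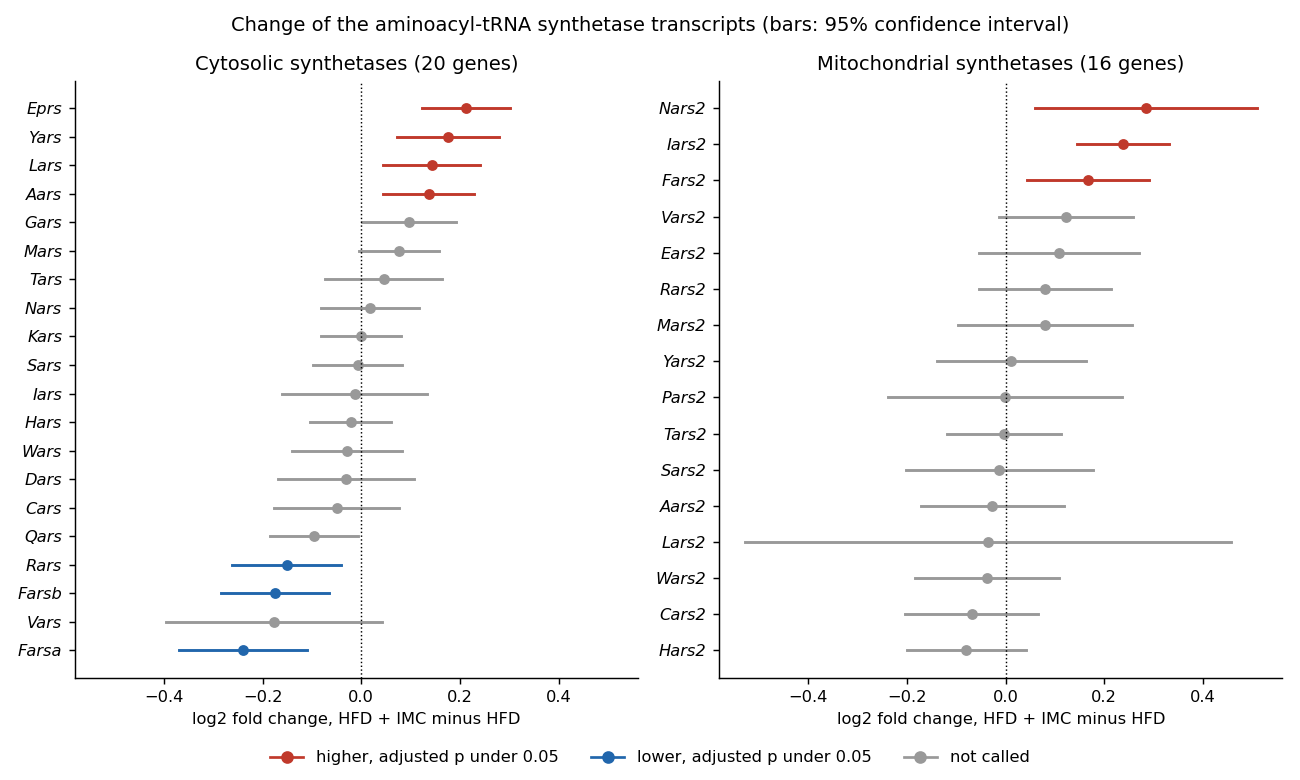
Log2 fold change (x axis) of the 20 cytosolic and 16 mitochondrial synthetase genes (y axis, ordered by change) with 95% confidence intervals from limma. The 7 members called higher lie between 0.14 and 0.28, and the 3 called lower, all cytosolic, between -0.24 and -0.15.

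Phenylalanyl-tRNA synthetase is built differently in the compartments, and its genes moved apart. The cytosolic enzyme is made of alpha subunits encoded by Farsa (chr8:84856969-84869257, plus strand) and beta subunits encoded by Farsb (chr1:78417958-78488897, minus strand), and both transcripts fell in HFD + IMC mice. Farsa stood at 5.36, 5.19, 5.13, 5.19 and 5.26 log2 CPM in the HFD mice, and at a lowest value of 4.87, a median of 4.97 and a highest of 5.11 in the HFD + IMC mice. Every HFD mouse was above every HFD + IMC mouse. The difference was -0.24 with an SE of 0.06 (n = 5 and 6, limma adjusted p = 0.00668), and the level of Farsa fell by 15.3%. Farsb stood at 6.30, 6.13, 6.24, 6.11 and 6.04 log2 CPM in the HFD mice and ran from 5.93 through a median of 5.98 to 6.05 in the others. Here the lowest HFD mouse reached into the range of the HFD + IMC mice. The difference of Farsb was -0.17 with an SE of 0.05 (limma adjusted p = 0.0153).

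Fars2, the mitochondrial enzyme for the same amino acid, works as a single chain (chr13:36117428-36537595, plus strand). Its transcript was at 4.55, 4.55, 4.39, 4.62 and 4.58 log2 CPM in HFD mice and between 4.60 and 4.83, with a median of 4.69, in HFD + IMC mice. Fars2 rose by 0.17 with an SE of 0.06 (limma adjusted p = 0.0325), and a single HFD mouse lay above the lowest HFD + IMC mouse. Its call was lost in 5 of the 11 fits that leave out a mouse (without HFD mouse 1 or 3 or HFD + IMC mouse 2, 3 or 6) and with total-count scaling, with adjusted p between 0.0245 and 0.0933 over all alternatives. The ratio of Fars2 to Farsa, which needs no scaling between mice, was -0.69 ± 0.09 (SD, n = 5) on the log2 scale in HFD mice and -0.28 ± 0.07 (SD, n = 6) in HFD + IMC mice. The ratio of Fars2 to Farsb was -1.63 ± 0.17 and -1.29 ± 0.10. Both ratios were higher in each HFD + IMC mouse than in any HFD mouse.

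Such ratios were computed for all 17 pairs of a mitochondrial and a cytosolic gene of the same amino acid. The groups did not overlap in the 2 phenylalanyl pairs, and they overlapped in the other 15. The next largest shifts were 0.30 for Vars2 to Vars, 0.27 for Nars2 to Nars and 0.25 for Iars2 to Iars, each in the same direction. In the opposite direction stood Pars2 to Eprs at -0.21 and Lars2 to Lars at -0.18. The pairs share genes, since Eprs enters in 2 of them and Fars2 in both phenylalanyl pairs, which are therefore not separate results. No test was made of the pairs, and the share of non-overlapping ratios among other gene pairs was not computed.

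**Figure D2:**
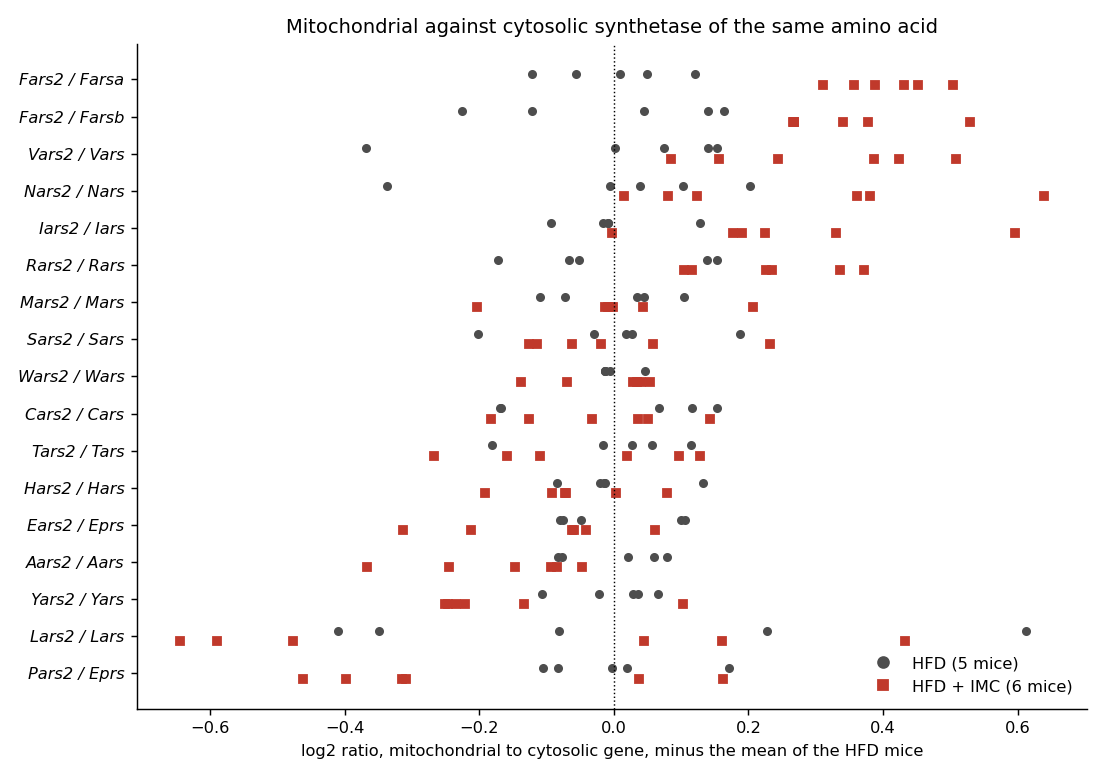
Log2 ratio of the mitochondrial to the cytosolic synthetase transcript (x axis, centred on the mean of the HFD mice) for 17 gene pairs (y axis), with a point for each of the 5 HFD and 6 HFD + IMC mice. In both phenylalanyl pairs all 6 HFD + IMC mice lie to the right of the 5 HFD mice.

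Eprs was the cytosolic member with the largest rise. It encodes the bifunctional enzyme that joins glutamate and proline to their transfer RNAs within a single chain of the multisynthetase complex (chr1:185361417-185428360, plus strand). Its transcript was at 7.34, 7.43, 7.33, 7.37 and 7.37 log2 CPM in HFD mice and between 7.52 and 7.69, with a median of 7.57, in HFD + IMC mice. All HFD + IMC mice were above all HFD mice, at a difference of 0.21 with an SE of 0.04 (limma adjusted p = 0.00142), or 15.9%. The adjusted p stayed between 0.000941 and 0.0055 over the 8 alternatives and the 11 fits without a mouse.

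Iars2, which charges mitochondrial transfer RNA with isoleucine, was the member with the smallest p (chr1:185286642-185329419, minus strand). It was at 6.46, 6.56, 6.42, 6.48 and 6.45 log2 CPM in HFD mice and between 6.65 and 6.83, with a median of 6.70, in HFD + IMC mice. The groups did not overlap, and the rise was 0.24 with an SE of 0.04 (limma adjusted p = 0.000961), or 18.0%. Its gene overlaps Rab3gap2 on the opposite strand, and 22.0% of the 50-base windows of its transcripts also occur in those of Rab3gap2, whose own difference was -0.04 with an SE of 0.05 (limma adjusted p = 0.558). The strand setting of the read count is not given in the sources used here, so reads of the overlap cannot be assigned with certainty. Iars, the cytosolic enzyme for isoleucine, had a difference of -0.01 with a 95% interval from -0.16 to 0.13.

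Iars2 and Eprs lie on the same stretch of chromosome 1, with 31997 bases between them. The gene between them, Bpnt1, which encodes a phosphatase of phosphorylated nucleotides, runs from 185329428 to 185357777 and begins next to the start of Iars2. Bpnt1 was also higher in HFD + IMC mice, by 0.43 with an SE of 0.06 (limma adjusted p = 0.000241). Bpnt1 and Rab3gap2 were chosen for their position after the values of the members had been seen.

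Aars and Yars, which charge alanine and tyrosine, were higher as well. Aars (chr8:111027778-111055569, plus strand) was at 7.07, 7.07, 7.05, 7.03 and 7.12 log2 CPM in HFD mice and between 7.14 and 7.34, with a median of 7.19, in HFD + IMC mice, without overlap. Its difference was 0.14 with an SE of 0.04 (limma adjusted p = 0.0218), and the call was lost with total-count scaling (adjusted p = 0.0648) and without HFD mouse 3 or 4 (at most 0.0523). Of its 50-base windows 13.5% also occur in transcripts of Exosc6, a same-strand neighbour with a difference of -0.25 that was not called. Yars (chr4:129189734-129219240, plus strand) was at 5.57, 5.60, 5.61, 5.57 and 5.71 log2 CPM in HFD mice and between 5.67 and 5.89, with a median of 5.79, in the others. The highest HFD mouse was above the lowest HFD + IMC mouse, and the rise was 0.18 with an SE of 0.05 (limma adjusted p = 0.0107). The other members whose stretches are shown above were not called, with differences of 0.10 for Gars, 0.05 for Tars and -0.01 for Iars.

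Lars, the cytosolic leucyl enzyme and a sensor of leucine for the kinase mTORC1, was at 6.09, 6.13, 6.18, 6.25 and 6.02 log2 CPM in HFD mice and between 6.22 and 6.33, with a median of 6.28, in HFD + IMC mice. It rose by 0.14 with an SE of 0.05 (limma adjusted p = 0.023), which was lost with total-count scaling (adjusted p = 0.0721) and without HFD mouse 1 or 5. Rars, the arginyl enzyme (chr11:35808381-35834528, minus strand), went the other way. It was at 6.39, 6.26, 6.37, 6.20 and 6.30 log2 CPM in HFD mice and between 6.08 and 6.30, with a median of 6.14, in HFD + IMC mice. Rars fell by 0.15 on the log2 scale with an SE of 0.05 (limma adjusted p = 0.03), although 1 HFD + IMC mouse lay among the HFD mice. Without HFD mouse 1 or 3, or HFD + IMC mouse 1, 2 or 6, it was not called, with an adjusted p of at most 0.0781.

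**Figure D3:**
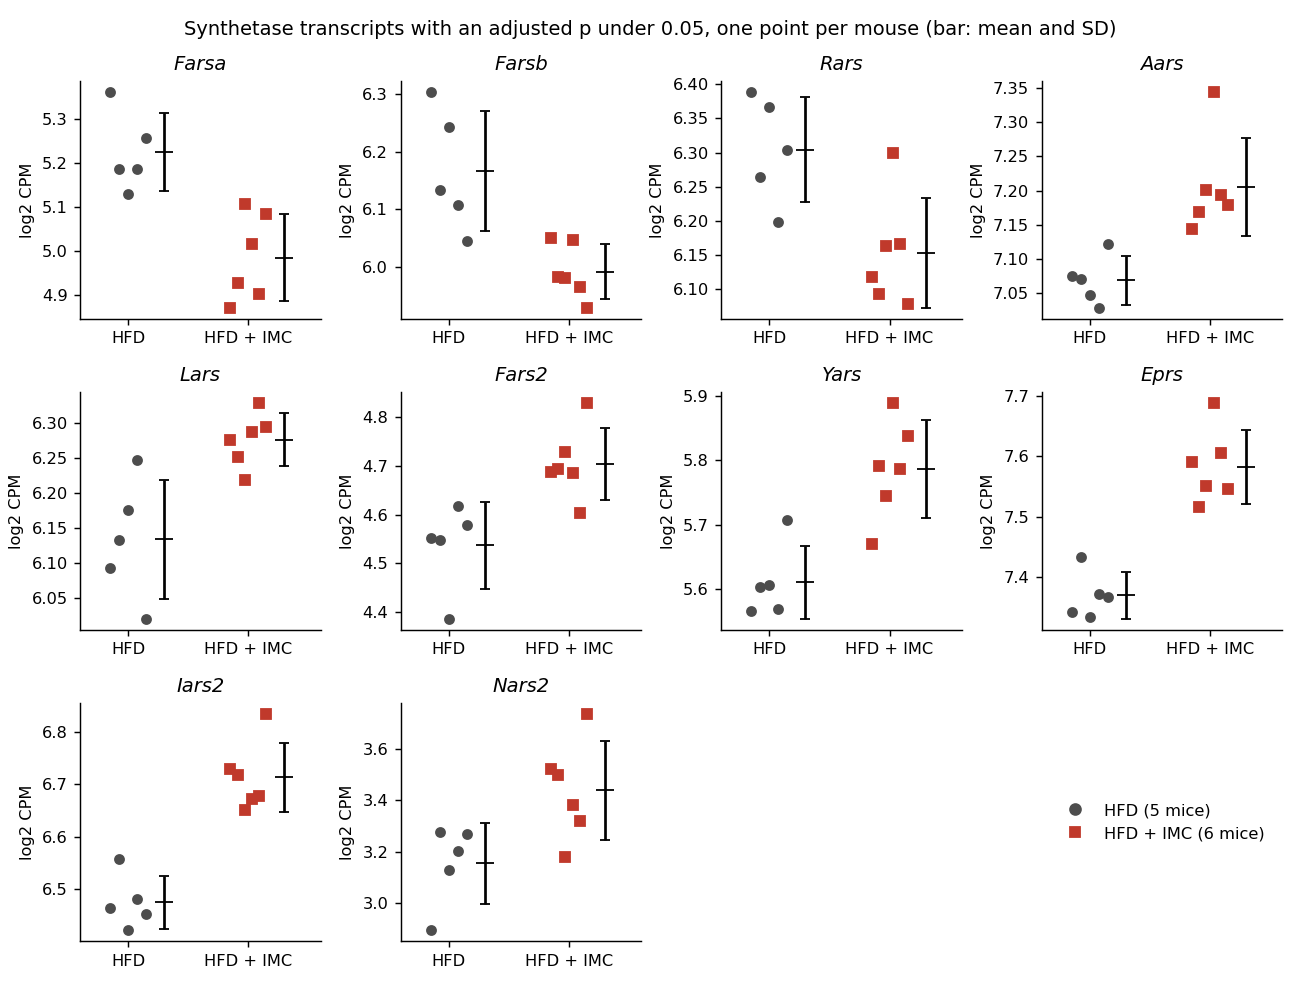
Log2 CPM (y axis, a separate range in each panel that does not start at 0) of the 10 called members in each HFD and HFD + IMC mouse, with the mean and SD of the group beside the points. The groups do not overlap in Farsa, Aars, Eprs and Iars2.

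Non-overlapping groups were seen for 4 of the 36 members, Farsa, Aars, Eprs and Iars2, beside 23.1% of all listed genes. In the multisynthetase complex, which holds 8 of the cytosolic members, Eprs and Lars were higher, Rars was lower, and Dars, Iars, Kars, Mars and Qars were not called. Its scaffold genes Aimp1, Aimp2 and Eef1e1 had differences of -0.11, -0.13 and -0.06, and 0 of the 3 reached an adjusted p under 0.05 by limma, or an unadjusted one. With total-count scaling 2 of them were called lower. Of the 12 cytosolic members outside the complex 2 were higher and 2 lower. Split by the fold of the catalytic domain, class I enzymes gave 3 higher and 1 lower of 18, and class II enzymes 3 higher and 2 lower of 17, with Eprs holding a domain of each class and left out of the split.

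The other cytosolic members were not called. Gars, the glycyl enzyme, had a difference of 0.10 with a 95% interval from 0.00 to 0.19 (limma adjusted p = 0.0956), and Qars, the glutaminyl enzyme, one of -0.10 with an interval from -0.19 to -0.01 (limma adjusted p = 0.0792). Both intervals lie on one side of 0 before adjustment, and Qars was called lower with array weights, with total-count scaling and without HFD mouse 5, while Gars was called higher without HFD + IMC mouse 5. Vars, the valyl enzyme, had a wide spread in HFD mice, from 5.92 to 6.51 log2 CPM, and a difference of -0.18 with an interval from -0.40 to 0.04. Mars, which charges methionine and starts every cytosolic protein, differed by 0.08 with an interval from -0.005 to 0.16. The differences of Cars, Dars, Hars, Kars, Nars, Sars, Tars, Wars and Iars, for cysteine, aspartate, histidine, lysine, asparagine, serine, threonine, tryptophan and isoleucine, ran from -0.05 to 0.05.

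Among the mitochondrial members, Nars2 completed the 3 higher calls. Nars2, the asparaginyl enzyme (chr7:96950839-97064758, plus strand), was at 2.90, 3.28, 3.13, 3.20 and 3.27 log2 CPM in HFD mice and between 3.18 and 3.73, with a median of 3.44, in HFD + IMC mice. The ranges overlapped, and the rise of 0.28 had an SE of 0.10 (limma adjusted p = 0.0433). It was lost in 7 of the 11 fits without a mouse (HFD mouse 1, 3 or 4 or HFD + IMC mouse 1, 2, 4 or 6), with array weights and with total-count scaling, with an adjusted p of at most 0.116. The number of mitochondrial members called higher was 1 in place of 3 without HFD mouse 1 or 3 or HFD + IMC mouse 2 or 6, and Iars2 was the one that held.

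The remaining mitochondrial members were not called. Vars2, Ears2, Rars2 and Mars2, for valine, glutamate, arginine and methionine, had differences of 0.12, 0.11, 0.08 and 0.08. Yars2, Pars2, Tars2, Sars2, Aars2, Wars2, Cars2 and Hars2 ran from 0.01 down to -0.08. Over the 26 members that were not called, the 95% interval lay within 0.25 of 0 on the log2 scale for 21. The summed level of all 16 mitochondrial members was 520 ± 74.5 CPM (SD, n = 5) in HFD mice, between 457 and 646. In HFD + IMC mice it was 537 ± 74.3 CPM (SD, n = 6), between 467 and 655, so the groups overlapped. Without Lars2, whose wide spread is described below, it was 313 ± 7.34 CPM, between 303 and 322, and 335 ± 11.6 CPM, between 323 and 355. Iars2, which was called higher, had the highest level among the rest and weighs most in this smaller sum. The sum of the 20 cytosolic members was 1732 ± 11.1 CPM and 1754 ± 54.0 CPM.

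Lars2, the mitochondrial leucyl enzyme (chr9:123366927-123462675, plus strand), stood apart from the family in its spread. It was at 7.51, 7.29, 7.27, 8.36 and 7.75 log2 CPM in HFD mice and between 7.13 and 8.23, with a median of 7.59, in HFD + IMC mice. The difference of -0.04 had an SE of 0.23, and its 95% interval ran from -0.53 to 0.46 (limma adjusted p = 0.917). The pooled SD of 0.45 was 21.8 times the counting error, and 99.8% of the genes of like level (within 0.5 log2 CPM) had a smaller SD. Over the 11 mice the value of Lars2 moved with that of Rn45s, the precursor of ribosomal RNA, and of Mir6236, a small RNA gene. Pearson's r was 0.995 with each of them, and Spearman's rho was 0.991 with Rn45s and 0.982 with Mir6236. With the 2 mice farthest from the median left out, r was 0.986 and 0.990, and within the 6 HFD + IMC mice it was 0.997 and 0.996. These were the highest r of all 12786 other genes, and the next gene, Clk4, gave 0.904, so the pair was chosen by its values and no p is given. The other 35 members had r with Mir6236 between -0.79 and 0.69. Rn45s ranged from 1698 to 5464 CPM, and its groups did not differ by the same test (log2 fold change -0.09, SE 0.30, limma adjusted p = 0.826). The points share their libraries and scaling, and the part of ribosomal RNA reads in the value of Lars2 was not tested.

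**Figure D4:**
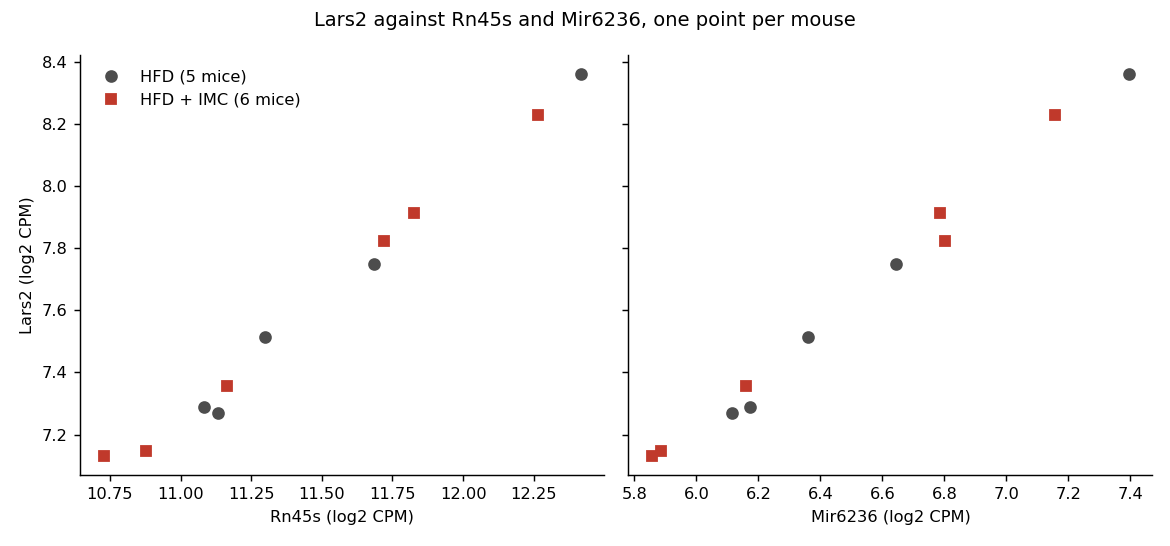
Log2 CPM of Lars2 (y axis) against log2 CPM of Rn45s (left) and Mir6236 (right), a point per mouse for 5 HFD and 6 HFD + IMC mice. The points of both groups follow a common line, from 7.13 to 8.36 log2 CPM of Lars2.

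Levels were compared between genes as CPM per kb of transcript, with the GENCODE principal transcript or, where shorter, the RefSeq span as length, which is a rough guide since the transcripts used in WAT were not measured. In HFD mice the cytosolic members ran from 13.1 (Iars) to 67.3 CPM per kb (Nars) with a median of 33.9, and the mitochondrial members from 1.94 (Mars2) to 53.3 CPM per kb (Lars2) with a median of 5.76. Below Nars at 67.3 ± 2.82 (SD, n = 5) came Lars2 at 53.3 ± 18.6, whose spread covers the next members in order. The value of Lars2 followed that of Rn45s over the mice, and the part of ribosomal RNA reads in this level was not tested. Kars at 44.1 ± 1.01 and Gars at 42.8 ± 1.14, the 2 genes that supply both compartments, followed with overlapping values of the mice, as did Qars at 40.2 ± 1.74, Wars at 40.0 ± 2.06 and Dars at 40.0 ± 3.71. Farsb at 35.4 ± 2.59 was above Farsa at 20.5 ± 1.29, although both subunits enter the same enzyme. Apart from Lars2, only Iars2 at 16.3 ± 0.58 and Tars2 at 15.2 ± 0.45 among mitochondrial members were above the lowest cytosolic member. The lowest were Wars2 at 2.59, Pars2 at 2.49, Nars2 at 2.37 and Mars2 at 1.94 CPM per kb.

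**Figure D5:**
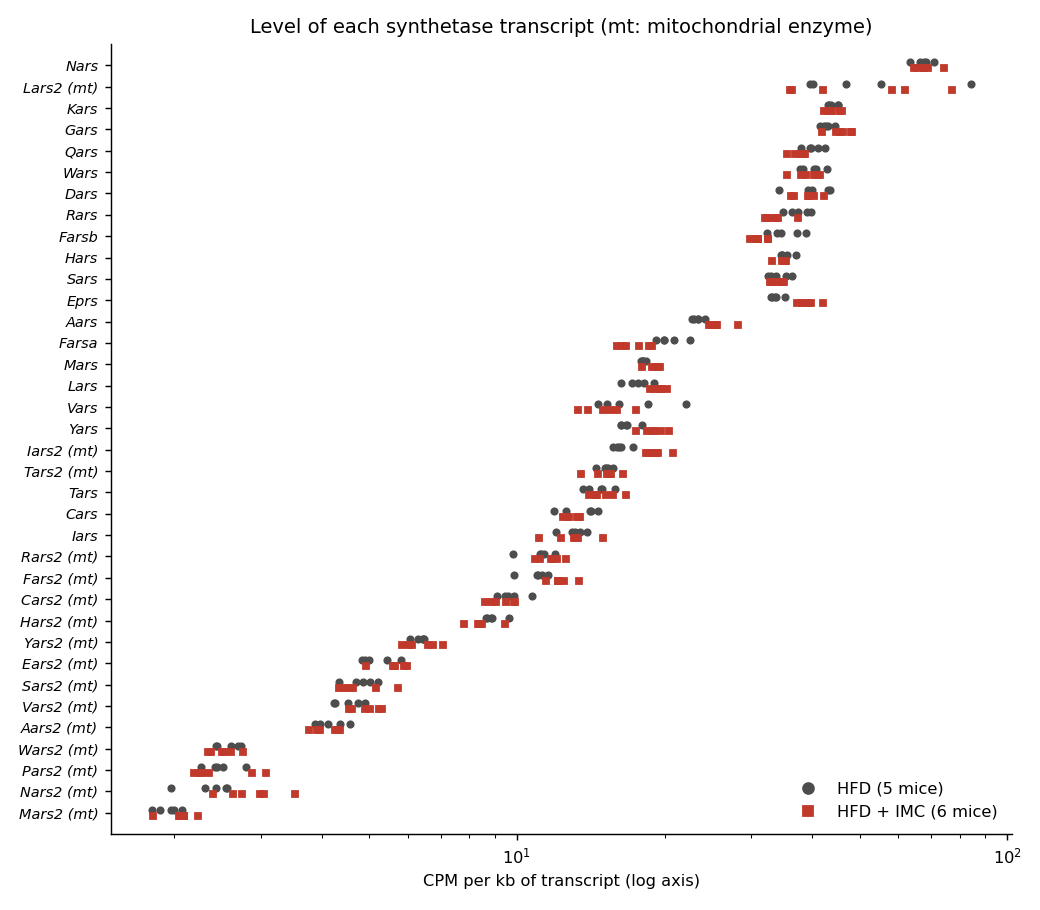
CPM per kb of transcript (x axis, log scale) of the 36 synthetase genes (y axis, ordered by the mean of the HFD mice), a point per mouse for 5 HFD and 6 HFD + IMC mice. Of the mitochondrial members, marked mt, Lars2, Iars2 and Tars2 lie among the cytosolic ones.

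Genes that work with the synthetases were examined from lists. The counts of these and the later lists stand beside 20.0% of all listed genes called higher and 21.0% called lower. Of 8 partners of charging in the cytosol, 2 were higher and 0 lower, with a median difference of 0.09. They were Sepsecs, which makes selenocysteine on its transfer RNA (0.53, SE 0.08, limma adjusted p = 0.00023), and Dtd1, which removes D-amino acids from transfer RNA (0.26, SE 0.09, limma adjusted p = 0.0432). The call of Dtd1 was lost with array weights, total-count scaling and voom and in 9 of the 11 fits without a mouse, while that of Sepsecs held in all of them. This list also held a further threonyl synthetase gene, which is outside the members examined here and was not called. In mitochondria, where glutaminyl transfer RNA is made by an amidotransferase in place of a synthetase, 1 of the 4 partner genes was higher and 0 lower. It was Gatb, a subunit of that amidotransferase, with a difference of 0.21 and an SE of 0.07 (limma adjusted p = 0.0392), a call that was lost with total-count scaling and in 7 of the 11 fits without a mouse. Of 15 genes that mature mitochondrial transfer RNA, 2 were higher and 0 lower, with a median of 0.03. Osgepl1, which modifies the base next to the anticodon, rose by 0.40 (SE 0.10, limma adjusted p = 0.00668), and Elac2, which trims the tail of the precursor, by 0.19 (SE 0.06, limma adjusted p = 0.0211).

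RNA polymerase III, which transcribes the nuclear transfer RNA genes, had 3 higher and 1 lower of 21 genes with a median of 0.05. Gtf3c1 and Gtf3c3, subunits of the factor TFIIIC that binds the transfer RNA genes, rose by 0.32 and 0.24, and the polymerase subunit Polr3g rose by 0.28. Maf1, the repressor of the polymerase, fell by 0.23 on the log2 scale, with an SE of 0.06 (limma adjusted p = 0.00541). The call of Gtf3c3 was lost with total-count scaling and in 5 of the 11 fits without a mouse, and that of Polr3g in 1 of them (HFD mouse 4). With total-count scaling 3 genes of this list were lower.

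The amino acid response that runs from uncharged transfer RNA through GCN2 and ATF4 was listed apart from the synthetases themselves. Of its 34 genes 32 were in the table, and 13 were higher, 2 lower and 17 not called, with a median difference of 0.10. The 3 with the smallest p were Vldlr, a lipoprotein receptor, at 0.93 (SE 0.10), Psat1, an enzyme of serine synthesis, at 0.62 (SE 0.07), and Cth, which makes cysteine, at 0.63 (SE 0.08). The 2 lower genes were Atf3, a stress-induced transcription factor, at -0.71 (SE 0.12, limma adjusted p = 0.00051), and Gdf15, a secreted stress signal, at -0.83 (SE 0.21, limma adjusted p = 0.00609). Windows were found for 28 genes of this list, and 9 of them held the element found for 5 synthetase genes, beside 4.51% of all genes with a window. The list was drawn up as genes of the ATF4 response, so this share is not independent of that choice. Of 9 genes for eIF2 alpha, its kinases, its phosphatases and regulators of GCN2, 1 was higher and 0 lower. It was Gcn1l1, the partner of GCN2 at the ribosome and neither a kinase nor a phosphatase, at 0.18 (SE 0.07, limma adjusted p = 0.043). No kinase or phosphatase gene of the list was called. The call of Gcn1l1 was lost with median centring, without a variance trend, with total-count scaling and in 9 of the 11 fits without a mouse.

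Nuclear genes of oxidative phosphorylation, listed with citrate synthase (Cs) and the transcription factor Tfam, had 11 higher and 0 lower of 20 genes with a median of 0.19. The smallest p were those of Sdha, Cs and Ndufs1, at 0.37, 0.42 and 0.28. The median of the 16 mitochondrial synthetases was 0.01, and that of the adipocyte markers 0.85. The lists were chosen with results of these data known, and the shares differ between lists without a test of that difference.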

How the data were processed

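RNA from the WAT of 11 mice was sequenced by the study from directional mRNA libraries. The authors used Trim Galore for trimming, STAR with UCSC annotation for alignment to mm10 and read counts per gene, and edgeR for upper-quartile scaling after low transcripts had been removed. The authors deposited log2 CPM values of 12787 genes, as used here. The deposited table also holds the authors' fold change, mean level, likelihood-ratio score, p-value and FDR, which were not used. The strand setting of the count is not given in the sources used here.

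Groups were compared with limma 3.58.1 in R 4.3.3 (lmFit and eBayes with trend) on the deposited values, with the group as the only factor, no further filter and Benjamini-Hochberg adjustment over all genes. Whole reads were recovered from the equal steps of the CPM values (100% of values within 0.1 of a whole number) and used for depth and for alternatives. A read was worth 0.0403 to 0.0450 CPM. Per the study's methods mice were group-housed, with several cages for each condition, and which of the 11 mice shared a cage is not given in the sources used here, so cage was not modelled and p-values measure the spread between these 11 libraries. Counting errors cover reads, which are not independent molecules.

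Positions and promoter windows are from RefSeq (GRCm38.p6, which mm10 corresponds to), while transcripts for shared 50-base windows and lengths are from GENCODE. Over 5% of the windows of 8 of the 36 members occur in transcripts of another gene. The fit was tested on simulated data of 12787 genes for this comparison: calls were made for 93.7% of genes with a log2 change of 1 and for 71.1% of those with 0.5, and 4.72% of calls fell on unchanged genes. Only a small part of the genes was changed in each simulation, whereas 40.9% of all listed genes were called in the data. Changes as small as the largest of a member, 0.28, were not simulated, so these shares do not describe how often such changes are found.

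A gene that follows the naming rule and a promoter window are not reported here. The members and lists were chosen with earlier results of these data known. Any member could be named. Of other lists, at most the 3 genes with the smallest p were named, or all genes where a count was 5 or fewer, while markers of the tissue check could be named freely. Rab3gap2, Exosc6, Bpnt1, Rn45s, Mir6236 and Clk4 were named after values were seen. Alternatives were median centring, no variance trend, array weights, a minimum of 1 CPM in every mouse, a constant of 2 reads, total-count and median-of-ratios scaling, voom on recovered reads and leaving out each mouse. Replicate numbers follow accession order and pair no mice.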

Additional observations from a re-analysis of the deposited data

Results flagged for a closer look

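Of the 72 sets of values examined (36 members in each group), 5 held a mouse that stood away from the others by Dixon's ratio of the gap to the whole range, where chance flags about 1 in 20. In HFD + IMC mice these were Aars, where mouse 4 was highest at 7.34 log2 CPM before the next at 7.20 (ratio 0.714), Hars, where mouse 5 was lowest at 6.04 before 6.11 (0.708), and Ears2, where mouse 5 was lowest at 3.33 before 3.51 (0.647). In HFD mice they were Yars, where mouse 5 was highest at 5.71 before 5.61 (0.716), and Hars2, where mouse 1 was highest at 5.01 before 4.89 (0.771). The calls of Aars and Yars held without the mouse in question.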

How the results depend on the processing

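No called member changed direction under the 8 alternatives or in the 11 fits that leave out a mouse, and 5 of the 10 calls held in all of them. Of the 26 members that were not called, 2 (Gars and Qars) were called under at least 1 alternative, and the sign of an uncalled difference changed 48 times over 11 genes. Total-count scaling changed most. It gave 3 synthetase genes higher, 2 of them cytosolic and 1 mitochondrial, called 2 scaffold genes, 3 RNA polymerase III genes and 1 gene of the eIF2 alpha list lower, and left 1 higher gene among the cytosolic charging partners and 0 each among the mitochondrial partners and the eIF2 alpha list. This scaling put the median of all genes at -0.06 in place of -0.03. Voom gave 1 higher cytosolic partner, and median centring and the fit without a variance trend gave 0 higher genes of the eIF2 alpha list.

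With a mouse left out, 4 to 8 synthetase genes were higher, and of these 1 to 3 were mitochondrial. The range was 1 to 2 for cytosolic and 0 to 1 for mitochondrial charging partners, 0 to 1 for the eIF2 alpha list in either direction, and 3 to 6 lower for the fibroblast list, where the call of Col1a2 was lost in 7 of the 11 fits. Scaffold genes and mitochondrial tRNA maturation genes called lower ranged from 0 to 1. The counts of the amino acid response, oxidative phosphorylation, adipocyte, macrophage and mast cell lists stayed within 1.5 times the main count throughout. The cause of these shifts was not tested. Replicate numbers follow accession order only. The groups hold different mice and the labels pair none of them, so no paired analysis was made. Pars2, the member with the fewest reads (128 on average), had an SE of 0.11, Mars2 with 135 reads one of 0.08, Eprs with 4232 one of 0.04 and Lars2, with the most reads (4812), one of 0.23, so the SE did not follow the read number alone.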
